A study of Mus musculus with 4 samples.

Results

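Mitochondrial ribosomal protein genes are the nuclear genes that encode the protein part of the mitochondrial ribosome. They were taken from the deposited expression table as the rows whose symbol is Mrpl or Mrps followed by a number and at most 1 letter, without pseudogene entries. The rule found 78 of the 55426 rows. All 78 had a mean of at least 1 FPKM (fragment counts scaled to transcript length and to library size) and were tested, among 13931 tested genes. The samples were mouse retinal organoids at day 6, which are stem cell aggregates grown towards retinal progenitors. All 4 libraries came from 1 line, labelled Rx:GFP Mettl3 KO with a Dox-inducible HA-METTL3, differentiated in medium that contained AGN at 0.1 µM. METTL3 is the catalytic subunit of the enzyme that writes N6-methyladenosine on RNA. The untreated group held 2 libraries without doxycycline (Dox), and the Dox group held 2 libraries of cells given Dox at 2 µg/ml for 6 days. The titles call the groups EV and EV+Dox without explaining EV, and nothing in the labels says that the libraries came from separate cultures, so p-values measure only the spread between these libraries.

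The mitochondrial ribosome translates the few mRNAs that mitochondrial DNA encodes, all of them for subunits of the respiratory chain and the ATP synthase. Its rRNAs come from mitochondrial DNA, while all of its proteins are imported from the cytosol. Some of these proteins descend from bacterial ribosomal proteins and others exist only in mitochondria. Doxycycline is a tetracycline, a class of antibiotics that bind the small subunit of bacterial ribosomes and can inhibit mitochondrial translation. With Dox as the inducer of HA-METTL3, the drug and the induced protein cannot be told apart in this design.

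Because mitochondrial ribosomal protein genes are known for promoters with sites for the factors NRF1, ETS (GABP) and YY1, the promoters of 3 members are shown. Mrpl58 was the member that passed the test, Mrpl39 had the next lowest fold change and Mrps27 the highest. Each line gives the 250 bases before the RefSeq start (GRCm38.p6), written 5′ to 3′ on the strand of the gene, with a match to one of the 3 motifs in capitals.
Mrpl58: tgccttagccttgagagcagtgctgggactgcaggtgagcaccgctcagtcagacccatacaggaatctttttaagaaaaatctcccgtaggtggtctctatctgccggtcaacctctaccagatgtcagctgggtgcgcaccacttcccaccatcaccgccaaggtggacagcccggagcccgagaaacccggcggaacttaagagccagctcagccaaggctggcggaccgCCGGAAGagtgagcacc
Mrpl39: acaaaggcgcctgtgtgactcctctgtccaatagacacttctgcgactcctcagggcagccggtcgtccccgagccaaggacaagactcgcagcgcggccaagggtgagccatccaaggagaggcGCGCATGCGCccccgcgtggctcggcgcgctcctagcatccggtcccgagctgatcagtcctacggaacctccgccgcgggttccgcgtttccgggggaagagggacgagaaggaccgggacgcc
Mrps27: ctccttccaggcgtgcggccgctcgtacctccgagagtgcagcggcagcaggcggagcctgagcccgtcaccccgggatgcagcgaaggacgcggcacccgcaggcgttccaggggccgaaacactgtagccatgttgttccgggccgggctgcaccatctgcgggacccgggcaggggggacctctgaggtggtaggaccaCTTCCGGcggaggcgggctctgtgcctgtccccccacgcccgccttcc
These stretches lie at chr11:115403502-115403751 on the plus strand, chr16:84735245-84735494 on the minus strand and chr13:99344536-99344785 on the plus strand. The GENCODE M21 model of Mrpl39 begins 498 bases upstream of the RefSeq start, so its stretch lies inside that gene model, whereas for Mrpl58 and Mrps27 both annotations have the same start. The Mrpl58 stretch holds the ETS core CCGGAAG, beginning 17 bases before the start. The Mrpl39 stretch holds an NRF1 core (GCGCA, any base, then GCGC), beginning 125 bases before the start. In Mrps27 the ETS core lies on the opposite strand, 48 bases before the start.

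RefSeq promoters of 300 bases (250 before and 50 after the start) were matched for 69 of the 78 members, and both strands were searched. The ETS core was in 26 of the 69 (37.7%), against 21.2% of the promoters of tested genes and 9.93% of all promoters. The YY1 core AAGATGGC was in 12 (17.4%), against 5.50% and 3.19%. The NRF1 core was in 13 (18.8%), against 12.3% and 5.19%. At least 1 of the 3 was in 43 of the 69. TATAAA was in 5 (7.25%), against 8.14% of tested and 15.7% of all promoters, and CCAAT was in 27 (39.1%), against 43.9% and 41.1%. The ETS and YY1 forms can share the letters AAG, but 0 of the 69 members had matches of both that did so. The motif forms were chosen with these counts in view, and a match is a description of letters, not a binding site. The median log2 fold change with Dox was -0.05 for the members with an ETS core and -0.08 for those without, 0.01 with a YY1 core and -0.08 without, and -0.09 with an NRF1 core and -0.07 without.

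The labels were first checked on genes outside the family. For Mettl3 the 2 untreated libraries had 40.33 and 37.98 FPKM and the 2 Dox libraries 45.20 and 46.37 FPKM (adjusted p = 0.122 in limma). A gene-level value does not separate transcripts of a knocked-out locus from those of the inducible copy, and exons of Tox4 overlap the gene, so this value neither bears out nor contradicts the labels. Rax, an eye-field transcription factor, was at 1.12 and 0.82 FPKM untreated and at 201.14 and 227.98 FPKM with Dox, and Six6 was at 0.01 FPKM in both untreated libraries. The defining markers of retinal progenitors were therefore at or near 0 in the untreated organoids, apart from Pax6, Lhx2 and Six3. The summed level of 6 retinal progenitor markers was 151 to 163 FPKM untreated and 790 to 918 FPKM with Dox. That of 5 neuronal markers was 133 to 136 and 78.5 to 82.7 FPKM, and that of 4 pigment epithelium markers 2.22 to 2.31 and 60.6 to 61.2 FPKM. Of the last, Pmel held 39.27 and 39.93 FPKM with Dox, and Tyr was at no more than 0.11 FPKM in any library. The groups overlapped in the sums of 4 pluripotent markers (22.59 and 21.06 FPKM untreated, 24.69 and 16.97 FPKM with Dox). They also overlapped in those of 4 surface ectoderm markers (49.66 and 44.89, 54.32 and 47.65 FPKM). Sums of 4 mesoderm and 4 endoderm markers were at most 2.21 FPKM. In bulk RNA, fewer cells of a type and less RNA per cell cannot be told apart, and the part of these marker differences in the values below was not tested. The depth was fitted from the steps of low FPKM values at 31800000 to 34300000 fragments per library, where 80.5 to 84.1% of these values were whole fragments within the rounding of the deposited values (17.6 to 19.3% by chance).

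The members were expressed above most tested genes, and their levels lay close together in the groups. Over all 4 libraries the mean level per member ran from 7.11 to 272.2 FPKM, a 38.3-fold range, with a median of 58.8 FPKM against 14.4 FPKM for all tested genes. Of the 78 members 62 lay between 30 and 120 FPKM, 10 above and 6 below. FPKM is scaled to transcript length, so these levels can be set side by side between genes, but only roughly. The depth fit took 230 to 240 bases off each transcript length, which weighs most on short transcripts. The longest transcript of Mrps21 has 488 bases.

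Mrps21, the counterpart of bacterial S21 in the small subunit, had the highest level, at 267.86 and 280.21 FPKM untreated and 279.14 and 261.70 FPKM with Dox. Mrpl17 of the large subunit followed, at 197.36 and 190.10 FPKM untreated and 195.00 and 190.53 FPKM with Dox. Mrps23, a mitochondria-specific protein of the small subunit, stood at 174.06 and 190.43 FPKM untreated and at 173.32 and 151.21 FPKM with Dox. In the first 2 of these genes the groups overlapped, and in Mrps23 both Dox libraries lay below both untreated ones, by less than the spread within either group.

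The lowest level was that of Mrpl1, which forms the mobile L1 stalk of the large subunit, with 7.17 and 7.14 FPKM untreated and 7.71 and 6.42 FPKM with Dox. At the fitted depth its lowest value corresponds to 210 fragments per kilobase, a counting error of 6.90% for 1 kilobase. The longest Mrpl1 transcript has 3556 bases, over which the counting error is smaller. Mrpl35 was at 12.65 and 12.29 FPKM untreated and 13.94 and 11.92 FPKM with Dox, and Mrpl47 at 20.60 and 21.27 FPKM untreated and 17.15 and 20.75 FPKM with Dox. In Mrpl1 and Mrpl35 the untreated values lay between the Dox values.

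**Figure D1:**
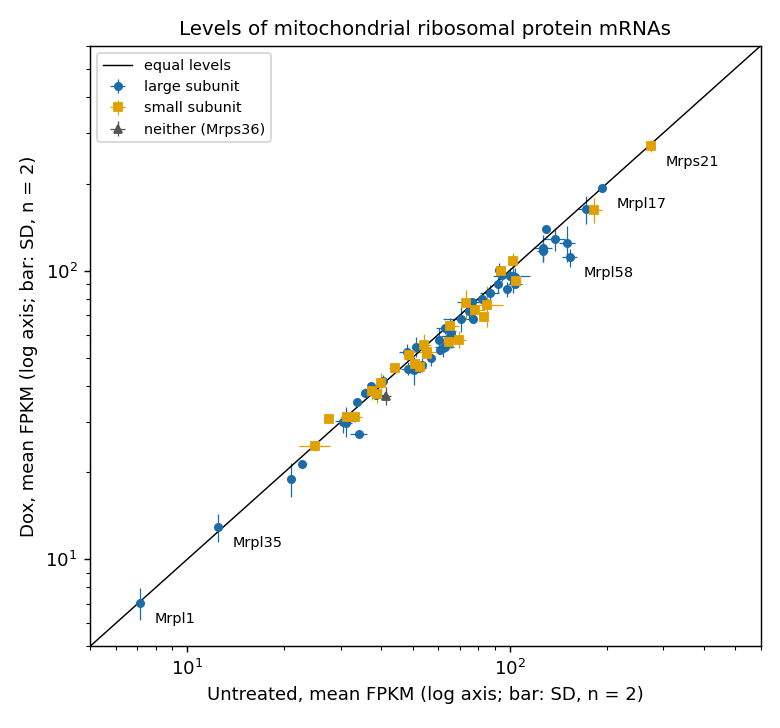
Mean FPKM of each of the 78 genes in untreated (x axis, log scale) and Dox libraries (y axis, log scale), with bars for the SD of 2 libraries; circles are large subunit, squares small subunit and the triangle Mrps36 genes, and the line marks equal levels. All points lie close to the line from Mrpl1 at 7.11 FPKM to Mrps21 at 272.2 FPKM, and Mrpl58 sits furthest below it.

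With Dox, 1 of the 78 members changed past the threshold and 0 rose. An adjusted p below 0.05 in limma (fitted and adjusted over all tested genes) was reached by 1 member (1.28%), Mrpl58, against 9.31% of all tested genes (4.44% higher and 4.87% lower). Fold changes of the members ran from -0.46 to 0.15 on the log2(FPKM + 1) scale, with a median of -0.08 against -0.0042 for all tested genes. No member reached an absolute log2 fold change of 0.5 (a 1.41-fold change), which 10.8% of all tested genes did, and 9 (11.5%) reached 0.2, against 35.0%. The 95% interval of the fold change lay wholly between -0.5 and 0.5 for 75 members (96.2%), against 65.5% of all tested genes. The exceptions were Mrpl58, Mrpl39 and Mrpl14, named after their intervals were seen.

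**Figure D2:**
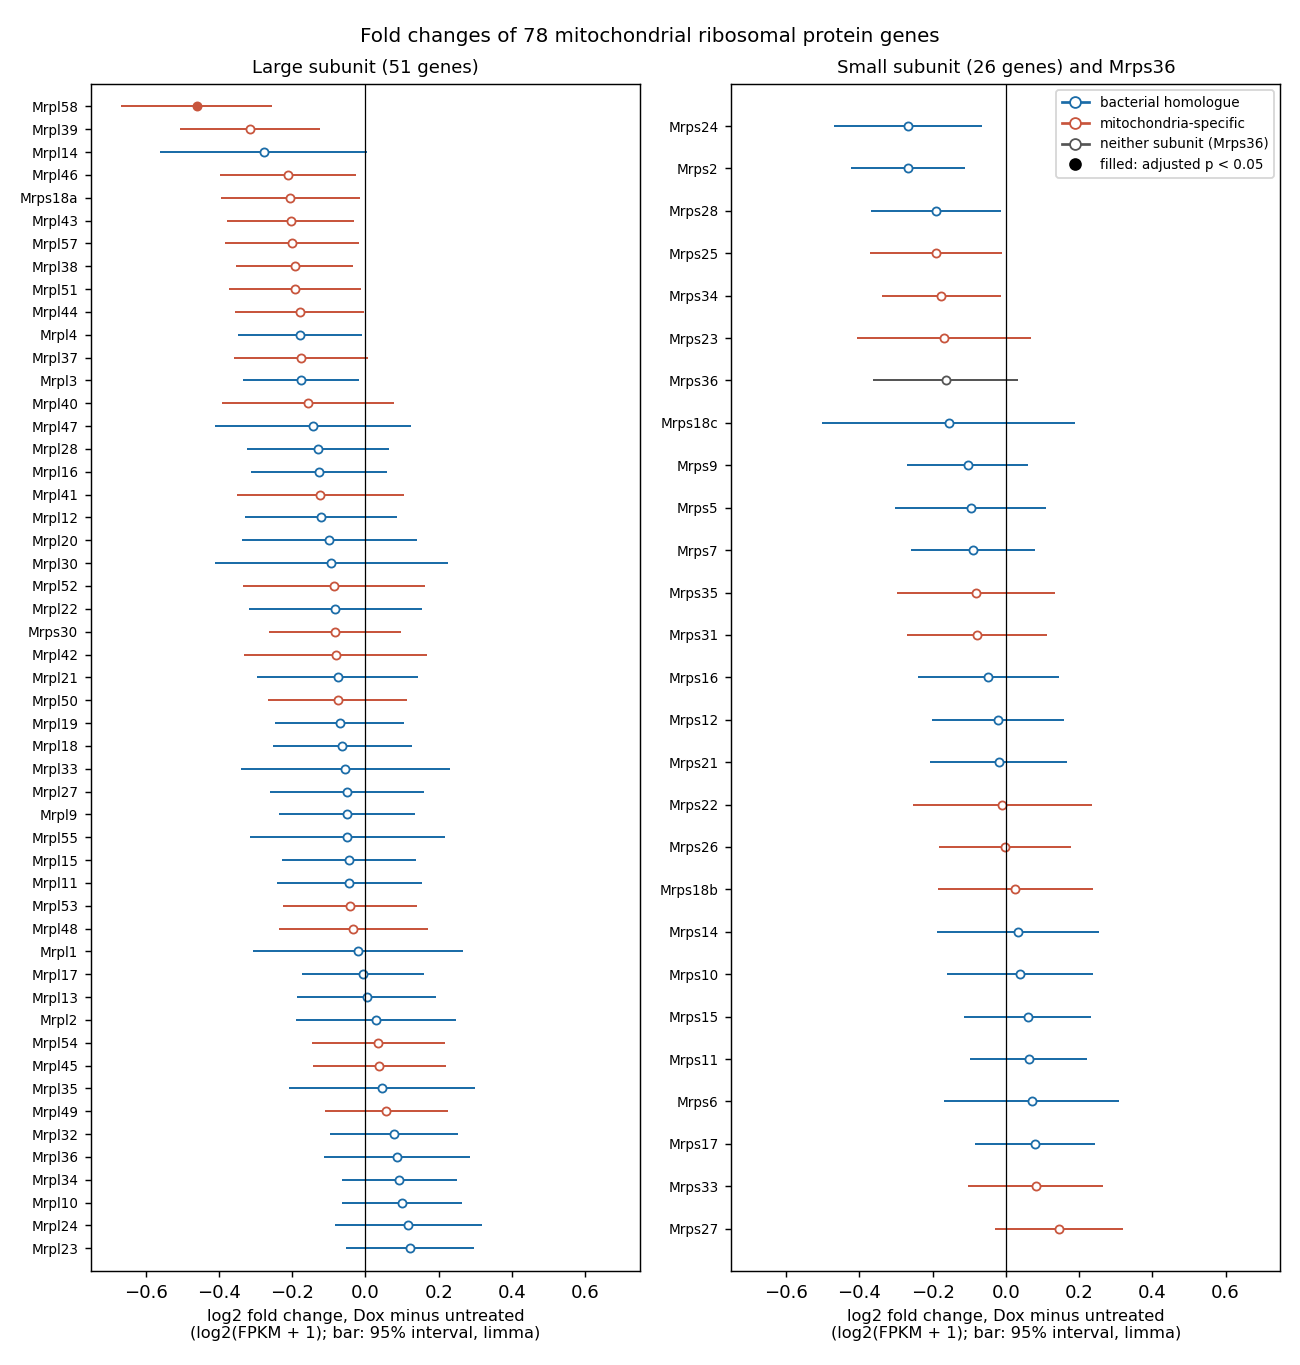
Log2 fold change (Dox minus untreated, log2(FPKM + 1) scale) of each gene with its 95% interval from limma, by subunit and sorted; colours separate proteins with a bacterial homologue from mitochondria-specific ones, and the filled point has an adjusted p below 0.05. Only Mrpl58, at -0.46, is filled, and the fold changes of the other 77 genes run from -0.31 to 0.15.

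Mrpl58 (ENSMUSG00000018858, chr11:115403752-115412674, plus strand, GRCm38) encodes a large subunit protein also known as ICT1, a peptidyl-tRNA hydrolase related to release factors that can free stalled mitochondrial ribosomes. Its level was 147.72 and 158.99 FPKM untreated and 116.84 and 105.52 FPKM with Dox. Both Dox libraries lay well below both untreated ones. Untreated libraries averaged 153.4 ± 8.0 FPKM and Dox libraries 111.2 ± 8.0 FPKM (SD, n = 2 per group), which puts the Dox level at 72.5% of the untreated level. The log2 fold change was -0.46 (SE 0.0814, 95% interval -0.67 to -0.26, adjusted p = 0.0253 in limma). The call was lost with the replicate block (adjusted p = 0.0599), without the variance trend (0.0523), without a filter on low values (0.103) and in each limma fit that left out 1 library (0.0639 to 0.186), while over all settings the fold change stayed between -0.53 and -0.39. Exons of the antisense gene Ict1os overlap it. Ict1os was listed at 1.07 and 1.31 FPKM untreated and at 0.66 and 0.68 FPKM with Dox. The part of shared reads in the Mrpl58 values was not tested.

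Mrpl58 was followed by genes that missed the threshold. Mrpl39, a mitochondria-specific protein of the large subunit, was at 32.58 and 35.54 FPKM untreated and at 27.59 and 26.74 FPKM with Dox, which is -0.31 on the log2 scale (SE 0.0756, adjusted p = 0.0665 in limma). Mrps2, the counterpart of bacterial S2 and named after its value was seen, was at 82.67 and 83.63 FPKM untreated and at 68.26 and 69.60 FPKM with Dox, which is -0.27 on the log2 scale (SE 0.0609, adjusted p = 0.0573). In both genes the gap between the groups was wider than the gap between replicates. Mrpl14, a core large subunit protein, was at 144.78 and 157.07 FPKM untreated and at 137.28 and 112.33 FPKM with Dox, and here the Dox libraries differed from each other by more than Dox replicate 1 did from untreated replicate 1 (log2 fold change -0.28, adjusted p = 0.210). At the other end, Mrps27, a pentatricopeptide repeat protein of the small subunit, was at 26.99 and 28.10 FPKM untreated and at 30.96 and 30.17 FPKM with Dox, which is 0.15 on the log2 scale (adjusted p = 0.275). Mrpl23 (0.12, adjusted p = 0.360) and Mrpl24 (0.12, adjusted p = 0.444) came next. The Mrpl23 and Mrps27 libraries did not overlap between groups and those of Mrpl24 did.

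Most members had small negative fold changes, and the size of their median varied with the libraries used. Of the 78 members 57 had a negative fold change (73.1%, against 50.8% of all tested genes), and both Dox libraries lay below both untreated ones for 27 members (34.6%, background 26.9%) and above them for 10 (12.8%, background 26.5%). At an unadjusted p below 0.05, 16 were lower (background 11.9%) and 0 higher (background 12.0%). The 78 genes summed to 5556 and 5754 FPKM in untreated replicates 1 and 2 and to 5551 and 5135 FPKM in Dox replicates 1 and 2, so that Dox replicate 1 was level with untreated replicate 1. Dox replicate 2 was below Dox replicate 1 in 64 of the 78 genes, with a median log2 difference of -0.10. Without Dox replicate 2 the median fold change of the family was 0.0028 and 38 of 78 were negative, whereas without Dox replicate 1 it was -0.12 and 65 were negative. It was -0.03 without untreated replicate 2, with 55 negative, and -0.11 without untreated replicate 1, with 53 negative. Without Dox replicate 2, 29 members lay below (37.2%, background 39.7%) and 23 above the untreated libraries (29.5%, background 36.9%). In the other fits that left out 1 library the share below stayed above the background. It was 70.5% without Dox replicate 1 (background 39.6%) and 59.0% without untreated replicate 1 (background 39.2%). Without untreated replicate 2 it was 44.9% (background 36.3%). The share above was 14.1 to 20.5% in these fits (background 36.0 to 40.7%). The 16 members lower by the unadjusted p became 6 (7.69%, against 1393 of the 13931 tested genes) without Dox replicate 2, 5 (6.41%, background 8.79%) without untreated replicate 1 and 2 (2.56%, background 8.13%) without untreated replicate 2. These shares were below the background, and only without Dox replicate 1 was the share above it, with 15 members (19.2%, background 10.9%). Of the summed FPKM of a library the family took 0.676% and 0.667% untreated and 0.641% and 0.647% with Dox. By this share both Dox libraries lay below both untreated ones, and Dox replicate 2 was not the lower of the pair. With each library rescaled to a common sum the median fold change was -0.05, with 52 of 78 negative, and leaving out libraries was not run on that scale.

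Cytosolic ribosomal protein genes also had unlike levels in the replicates. Their median log2 difference was -0.24 between Dox replicates 2 and 1 and 0.09 between untreated replicates 2 and 1, where the mitochondrial members had -0.10 and 0.05. The part of this library difference in the family's shift was not tested beyond the values without each library.

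**Figure D3:**
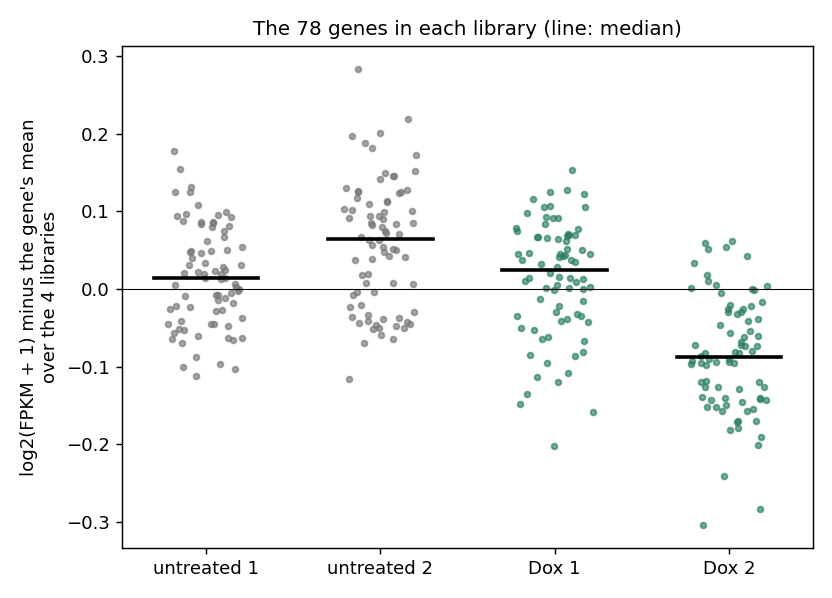
Deviation of each of the 78 genes from its own mean over the 4 libraries, in log2(FPKM + 1), for untreated replicates 1 and 2 and Dox replicates 1 and 2; points are genes and lines are medians. Untreated replicate 1 and Dox replicate 1 lie at medians of 0.01 and 0.02, untreated replicate 2 lies above them at 0.06 and Dox replicate 2 below them at -0.09.

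By subunit, the large subunit held 51 members, Mrps30 and Mrps18a among them because their proteins sit there in the known structure, and the small subunit 26. Mrps36 belongs to neither, as its product is a component of the oxoglutarate dehydrogenase complex. Large subunit members had a median level of 62.4 FPKM, and their fold changes had a median of -0.08 on the log2 scale, with 39 of 51 negative. Small subunit members had a median level of 54.3 FPKM, and their median fold change was -0.03, with 17 of 26 negative. The difference between the subunits was not tested, and both medians turned positive without Dox replicate 2 (0.0052 and 0.0023). Leaving out untreated replicate 1 put the small subunit median at -0.07, and with subunits taken from the letter of the symbol alone the large and small medians were both -0.08.

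Within the large subunit the 21 mitochondria-specific members were described apart from the 30 with a bacterial homologue, and the difference between these classes was not tested. Their median log2 fold change was -0.16, 18 of 21 were negative, and in 12 both Dox libraries lay below both untreated ones (background 26.9% of all tested genes), with 1 above (background 26.5%). Besides Mrpl58 and Mrpl39, these included Mrpl38, at 60.52 and 60.73 FPKM untreated and 52.04 and 53.75 FPKM with Dox, Mrpl43, Mrpl46, Mrpl51 and Mrpl57. Mrpl44, whose protein has a ribonuclease III-like fold, was at 53.23 and 53.54 FPKM untreated and 48.88 and 45.21 FPKM with Dox. The adjusted p-values of these 6 genes other than Mrpl58 and Mrpl39 ran from 0.135 to 0.198 in limma. Mrpl45, which tethers the ribosome near the inner membrane, went the other way within its spread, with 41.33 and 39.47 FPKM untreated and 42.94 and 40.08 FPKM with Dox. Without Dox replicate 2 the median of the 21 was -0.06, with 14 negative, and without Dox replicate 1 it was -0.20.

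The 30 large subunit members with a bacterial homologue had a median log2 fold change of -0.05, with 6 wholly below and 5 wholly above the untreated libraries (background 26.9% and 26.5%). They include the stalk proteins that recruit translation factors. Mrpl12 was at 123.17 and 130.53 FPKM untreated and 123.22 and 109.98 FPKM with Dox, and Mrpl10, which anchors it, at 36.70 and 37.45 FPKM untreated and 40.29 and 39.35 FPKM with Dox. Mrpl11, at the base of the stalk, was at 72.68 and 76.94 FPKM untreated and 76.27 and 68.94 FPKM with Dox. The groups overlapped in Mrpl12 and Mrpl11, and Mrpl10 was slightly higher with Dox in both libraries (log2 fold change 0.10, adjusted p = 0.414 in limma). Mrpl3, near the peptidyl transferase centre, was at 77.55 and 76.71 FPKM untreated and 67.00 and 69.45 FPKM with Dox (log2 fold change -0.17, adjusted p = 0.167). Without Dox replicate 2 the median of the 30 was 0.03.

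In the small subunit, the median fold change was -0.03 for the 16 members with a bacterial homologue and -0.04 for the 10 mitochondria-specific ones. Mrps12, the counterpart of the S12 protein that keeps decoding accurate, was at 62.72 and 68.41 FPKM untreated and at 65.07 and 63.99 FPKM with Dox, with full overlap. Mrps24, the counterpart of bacterial S3 at the mRNA entry, was at 66.97 and 72.27 FPKM untreated and 60.42 and 54.94 FPKM with Dox (log2 fold change -0.27, adjusted p = 0.114 in limma). The 3 Mrps18 genes are paralogues related to bacterial S18, of which only Mrps18c is counted here as its homologue, following the standard names of the proteins. Mrps18a, in the large subunit, was at 59.85 and 66.00 FPKM untreated and 55.06 and 53.72 FPKM with Dox, Mrps18b at 41.04 and 39.04 against 43.28 and 38.36 FPKM, and Mrps18c at 77.54 and 92.14 against 84.88 and 67.58 FPKM. Among these 3, the groups were apart only in Mrps18a (log2 fold change -0.21, adjusted p = 0.174). Mrps36 was at 40.36 and 42.40 FPKM untreated and 38.66 and 35.03 FPKM with Dox (adjusted p = 0.279).

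Among the other genes of mitochondrial translation, 1 was called. Over all tested genes 4.44% were called higher and 4.87% lower, and by the unadjusted p in limma 12.0% were higher and 11.9% lower. Mitochondrial ribosomal proteins under other symbols, Dap3 and Chchd1 among them, had fold changes between -0.07 and -0.01 in all 5 genes found, with 0 called in limma and 0 at an unadjusted p below 0.05. Of 25 ribosome assembly factors 0 were called (1 higher and 1 lower by the unadjusted p in limma), with a median of -0.09. Of 16 tested mitochondrial aminoacyl-tRNA synthetases 0 were called (0 higher and 2 lower unadjusted), with a median of -0.09. Of 15 translation factors 2 were higher and 2 lower unadjusted, and 0 were called higher (background 4.44%) and 1 lower (background 4.87%). This was Mtrf1l, the mitochondrial release factor 1a, which like Mrpl58 carries the peptide-releasing domain of the class. It fell from 6.47 and 6.88 FPKM to 4.24 and 4.61 FPKM (log2 fold change -0.50, SE 0.103, adjusted p = 0.0412 in limma). The call was lost with the replicate block (adjusted p = 0.0757), with TPM scaling (0.115), without a filter (0.119), with a minimum mean of 5 FPKM (0.0605) and without each library in turn, and over all settings the adjusted p ran from 0.0225 to 0.226. Mtif3, an initiation factor, stood at 14.64 and 17.25 FPKM untreated and 20.92 and 19.77 FPKM with Dox (log2 fold change 0.34, adjusted p = 0.115).

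Of the RNAs that these ribosomes contain and translate, 0 were called (background 9.31%). Among the 13 mitochondrially encoded mRNAs, 12 had a negative fold change (background 50.8%) and 5 were lower at an unadjusted p below 0.05 in limma (background 11.9%). Both Dox libraries lay below both untreated ones in 7 of the 13 (background 26.9%) and above them in 0 (background 26.5%). The groups overlapped in the other 6, and mt-Nd4l had a higher mean with Dox. Summed over the 13 genes, the level was 28920 and 37204 FPKM untreated and 29275 and 22706 FPKM with Dox, so Dox replicate 1 lay between the untreated libraries and Dox replicate 2 below all others. The rRNA of the large subunit, mt-Rnr2, was at 330.03 and 365.10 FPKM untreated and at 258.70 and 196.57 FPKM with Dox (log2 fold change -0.62, adjusted p = 0.0589). The rRNA of the small subunit, mt-Rnr1, was at 178.98 and 222.38 FPKM untreated and 167.52 and 129.58 FPKM with Dox (log2 fold change -0.43, adjusted p = 0.175). Libraries were selected for poly(A), which mature rRNA carries little of, and the part of that selection in these values was not tested. Between Dox replicates both rRNAs differed in the same direction as the member genes, with lower values in replicate 2. Of the 10 genes for transcription and replication of mitochondrial DNA, 0 were called (background 9.31%). By the unadjusted p in limma 1 was higher (background 12.0%) and 0 lower (background 11.9%). The median of the 10 was 0.03, with 6 of 10 positive. The values ran from -0.31 for Polrmt, the mitochondrial RNA polymerase, to 0.44 for Mterf1a (adjusted p = 0.0981), which was the 1 higher gene.

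Among 18 tested genes known to respond to impaired mitochondrial translation, 2 rose and 0 fell (background 4.44% and 4.87%). By the unadjusted p in limma 6 were higher (background 12.0%) and 1 lower (background 11.9%), the former including Mthfd2, Chac1 and Trib3. Ddit3, a transcription factor of the stress response, rose from 13.52 and 13.84 FPKM to 22.47 and 21.97 FPKM (log2 fold change 0.66, SE 0.0732, adjusted p = 0.00488 in limma), with adjusted p-values of 0.0528 without untreated replicate 1 and 0.0511 without Dox replicate 1. Atf5, a transcription factor linked to the mitochondrial unfolded protein response, rose from 21.57 and 20.19 FPKM to 27.02 and 30.84 FPKM (log2 fold change 0.45, SE 0.0914, adjusted p = 0.0404), a call that was lost with the replicate block (0.0681), with TPM scaling (0.0913), without a filter (0.128), without the variance trend (0.0649) and without each library in turn (0.0724 to 0.223). Atf4 was at 71.65 and 66.93 FPKM untreated and at 80.55 and 84.82 FPKM with Dox (adjusted p = 0.0974). The mitochondrial chaperones and proteases Hspd1, Hspe1, Hspa9, Lonp1 and Clpp had fold changes between -0.19 and -0.05. Of the 18 genes 9 had a negative fold change (background 50.8%), Psat1 (-0.13), Sesn2 (-0.11) and Asns (-0.06) among them. The median of the 18 was 0.03. Gdf15 and Fgf21 were listed but lay under the filter. Gdf15 was at 0.30 and 0.18 FPKM untreated and 0.19 and 0.13 FPKM with Dox, and Fgf21 at no more than 0.08 FPKM in any library.

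The regulators of nuclear genes for mitochondria included a pair of opposite changes. Myc rose from 2.86 and 2.77 FPKM to 14.45 and 18.35 FPKM (log2 fold change 2.18, SE 0.133, adjusted p = 6.34e-04 in limma), and Mycn fell from 36.90 and 33.33 FPKM to 15.44 and 14.28 FPKM (log2 fold change -1.19, SE 0.0866, adjusted p = 0.00107). Both are transcription factors known to drive ribosome and mitochondrial genes. Of the factors whose motifs were searched, Nrf1 stood at -0.03, Gabpa at -0.10 and Yy1 at -0.01 on the log2 scale, each with an adjusted p of at least 0.520 in limma. The cytosolic ribosomal proteins, 87 tested genes, had a median of 0.01, with 0 called higher (background 4.44%) and 1 lower (background 4.87%). This was Rps4l, at 236.93 and 225.30 FPKM untreated and 106.77 and 106.08 FPKM with Dox (log2 fold change -1.11, adjusted p = 5.54e-04 in limma), a gene closely related to another S4 gene, so reads may be shared.

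**Figure D4:**
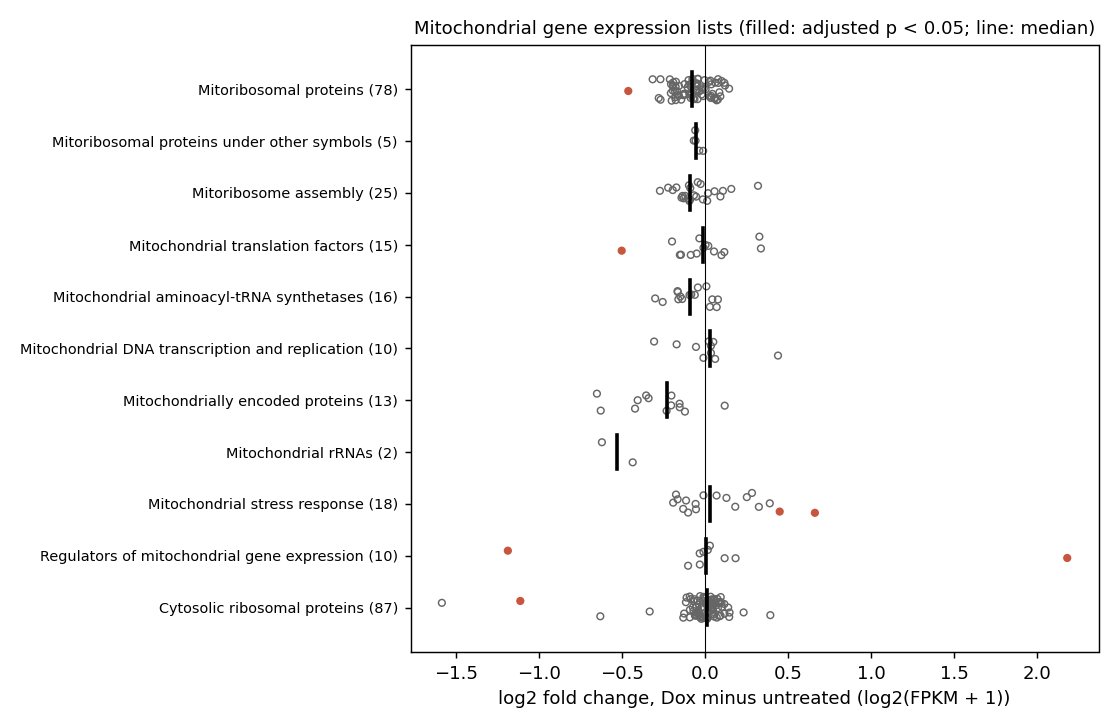
Log2 fold change (Dox minus untreated, log2(FPKM + 1) scale) of the tested genes of each list, with filled points for an adjusted p below 0.05 in limma and a line at each median. The 78 mitochondrial ribosomal genes form a narrow band around their median of -0.08, and Myc, at 2.18, and Mycn, at -1.19, lie far outside the other regulators.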

How the data were processed

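The authors deposited FPKM values, 1 column per library and not pooled. The submitters' processing notes name STAR, Cuffdiff and the build mm10, without roles or versions. The annotation release and any strand setting are not given in the sources used here.

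From these values log2(FPKM + 1) was computed, and every gene averaging 1 FPKM or more (13931 genes) was fitted in limma 3.58.1 (R 4.3.3; lmFit, eBayes with trend, no covariate, 2 against 2 libraries), two-sided, with Benjamini-Hochberg adjustment across the whole fit, called at 0.05. Fold changes on this scale understate those of low genes. An exact permutation test of a single gene allows no two-sided p below 0.333 here. Intervals are 95% intervals of that fit. The steps were tested on simulated data. The changes planted for limma were larger than that of any member, and noise was drawn independently for each gene. Shifts shared by a whole library were not simulated.

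Positions, lengths and overlaps came from GENCODE M21 (GRCm38, the assembly of mm10), in which all 78 members matched by identifier. Exons of 33 members overlap another gene, 28 of them on the opposite strand, so their values are uncertain if counting ignored strand.

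The members and lists were chosen with earlier results of these data known. Genes were named by rule: every member called, the 3 highest and 3 lowest by level and by fold change, up to 3 called genes of each list, Mettl3 and Rax. Others were named after their values were seen. The settings tried were other pseudocounts (0.1, 5), filters, scalings and variance models, the replicate block, each library left out and, chosen after seeing the data, removal of length and GC trends.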

Additional observations from a re-analysis of the deposited data

How the results depend on the processing

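The count of called genes fell from 1297 to 745 without a filter, to 821 with a minimum mean of 5 FPKM, and to between 593 and 697 when 1 library was left out, where the lone library is assumed to vary like the others. The count of called members, 1 in the main setting, was 0 without a filter, 0 without the variance trend and 0 in each of the fits leaving out 1 library (0 to 0). At an unadjusted p below 0.05 those 4 limma fits had 2 to 15 members lower (2.56 to 19.2%, against 8.13 to 10.9% of all tested genes) and 0 higher. With the replicate block 0 members were called, and 1134 genes in all. The labels do not say whether replicates with the same number belong together. Over all tested genes the deviations of the replicates numbered 1 from their group means had a correlation of -0.04. Pairing was not tested otherwise. Removing length and GC trends, chosen after seeing the data, called 5 members (6.41%), all lower: Mrpl58, Mrpl39, Mrpl46, Mrps2 and Mrps24. The same setting called 1848 of all tested genes (13.3%). The cause was not tested. The family median ranged from -0.12 to 0.0028 when 1 library was left out, the large subunit median from -0.15 to 0.0052 and the small subunit median from -0.07 to 0.0023, with the upper end in each case without Dox replicate 2. Genes near 0 changed sign: Mrps21 with TPM (0.0030), quantile normalization (0.0135) and length and GC removal (0.0569), and between -0.0658 and 0.0269 with 1 library left out; Mrpl17 with TPM (0.0154) and quantile normalization (0.0195), and between -0.0339 and 0.0199 with 1 library left out. Mrpl1 ranged from -0.14 to 0.0950 and Mrpl35 from -0.0600 to 0.15 in those fits. With 2 libraries a group and standard errors of 0.0609 to 0.137, changes of the size seen in most members could not be told from the spread between libraries.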

Other observations

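Many genes of the family share a start region with a neighbour on the other strand. Of the 78 members 17 (21.8%) had a protein-coding gene beginning on the opposite strand within 500 bp upstream in GENCODE M21, against 10.1% of 11652 tested protein-coding genes. Mrps12 shares its start region with Sars2, the mitochondrial seryl-tRNA synthetase, 172 bp away, and Mrps27 with Ptcd2, 81 bp away. Mrpl49 lies 59 bp from Fau, which encodes a cytosolic ribosomal protein, and Mrpl32 lies 75 bp from Psma2, a proteasome subunit. Of these neighbours 16 were tested, and 0 were called higher (background 4.44%) and 0 lower (background 4.87%) in limma. Mrpl46 and Mrps11 are both members and have overlapping exons on opposite strands, with fold changes of -0.21 and 0.06.

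The table also lists 5 pseudogene entries of the family, which the rule left out. Mrpl48-ps was at 13.53 and 15.64 FPKM untreated and 15.61 and 12.08 FPKM with Dox, beside 28.18 to 31.52 FPKM for Mrpl48 itself. Reads of near-identical copies can be split between them, so the values of Mrpl48, Mrpl23 and Mrps36 are uncertain. Mrpl23-ps1 was at 7.25 and 6.01 FPKM untreated and 9.69 and 8.19 FPKM with Dox. Mrps36-ps1 lay between 5.06 and 8.35 FPKM, Mrps36-ps2 between 0.76 and 4.73 FPKM, and Mrps36-ps3 was listed at 0 in all 4 libraries.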
